A study of Mus musculus with 36 samples.

Results

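The serine proteases and the peroxidase of neutrophil primary granules were followed by RNA sequencing through 4 mouse myeloid populations. The set held 5 genes, Mpo, Elane, Prtn3, Ctsg and Prss57, taken by gene name. Each was listed once among the 56026, 56575 and 57252 gene models of the 3 deposited expression tables, which cover bone marrow cells, B16 tumours and MC38 tumours. Bone marrow granulocyte-macrophage progenitors (GMP), bone marrow monocytes, and tumour-associated macrophages (TAM) from B16-F10 melanoma and from MC38 colon carcinoma were measured after OMV-SIRP-G, after OMV-SIRP and after phosphate-buffered saline (PBS). All animals were of WT genotype, and each of the 12 groups had 3 libraries, 36 in all. OMV stands for outer membrane vesicle, a particle shed from bacterial membranes, and the sample labels do not spell out the remainder of the treatment names. Pooling of 3 samples is mentioned in the design text, and the origin of replicate libraries from different animals is not stated. The p-values therefore reflect variation among libraries, which may be technical. The question addressed was whether the treatments changed myeloid cells in the marrow as well as in the tumour.

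Primary, or azurophilic, granules are made while granulocytes are at the promyelocyte stage, and transcription of their cargo is largely shut down as the cells mature. Myeloperoxidase turns hydrogen peroxide and chloride into hypochlorous acid, and the serine proteases are made as inactive precursors, activated by cathepsin C and stored on the proteoglycan serglycin. Monocytes carry a smaller store of the same proteins, left from their progenitors, and tissue macrophages mostly lack them.

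Mpo (ENSMUSG00000009350) encodes the peroxidase and lies on chromosome 11 at 87793581 to 87804413 of GRCm38, on the + strand. Elane (ENSMUSG00000020125, + strand) encodes neutrophil elastase and spans 79886247 to 79888215 of chromosome 10. Prtn3 (ENSMUSG00000057729, + strand) encodes proteinase-3, and its model spans 79874476 to 79883174 of the same chromosome. Prss57 (ENSMUSG00000020323, - strand) encodes a further neutrophil serine protease, which cleaves after arginine, and spans 79781474 to 79790961 of chromosome 10. Ctsg (ENSMUSG00000040314, - strand) encodes cathepsin G and lies on chromosome 14 at 56099881 to 56102574. Of the models, 3 overlap a gene on the opposite strand, and whether reads were counted by strand is not given in the sources used here. Fstl3 shares 1157 of the 2843 exonic bases of Prss57, Plppr3 shares 159 of the 1732 of Prtn3, and Gm11505 shares 512 of the 3424 of Mpo.

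Promoters are shown because Mpo, Elane, Ctsg and Prss57 were lower in every treated monocyte library than in every PBS library. Prtn3 did not pass in either monocyte comparison with PBS, and its promoter is shown beside the others. RefSeq promoters of build GRCm38.p6, 250 bases before to 50 after the start site, were found for 4 of the 5 genes, all but Prss57. They are written 5′ to 3′ along the gene, with AGGAAGT, the core bound by ETS family factors such as PU.1, in capitals. The windows are chr11:87793534-87793833 (+) for Mpo, chr10:79886062-79886361 (+) for Elane, chr10:79879417-79879716 (+) for Prtn3 and chr14:56102525-56102824 (-) for Ctsg.
Mpo: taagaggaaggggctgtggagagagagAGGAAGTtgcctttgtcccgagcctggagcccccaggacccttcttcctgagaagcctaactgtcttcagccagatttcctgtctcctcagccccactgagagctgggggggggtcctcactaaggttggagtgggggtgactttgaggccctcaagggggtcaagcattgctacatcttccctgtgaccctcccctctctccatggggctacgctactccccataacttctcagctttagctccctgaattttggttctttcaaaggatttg
Elane: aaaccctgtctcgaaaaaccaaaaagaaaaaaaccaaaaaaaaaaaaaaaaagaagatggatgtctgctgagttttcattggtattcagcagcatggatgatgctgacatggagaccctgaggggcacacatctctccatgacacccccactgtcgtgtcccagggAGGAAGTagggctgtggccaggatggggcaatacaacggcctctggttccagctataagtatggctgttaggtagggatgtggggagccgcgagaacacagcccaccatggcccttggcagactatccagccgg
Prtn3: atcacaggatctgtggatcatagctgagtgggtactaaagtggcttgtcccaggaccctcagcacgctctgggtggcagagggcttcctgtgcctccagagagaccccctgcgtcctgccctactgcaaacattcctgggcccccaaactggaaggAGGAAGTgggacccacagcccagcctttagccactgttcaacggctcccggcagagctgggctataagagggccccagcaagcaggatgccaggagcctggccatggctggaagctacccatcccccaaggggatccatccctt
Ctsg: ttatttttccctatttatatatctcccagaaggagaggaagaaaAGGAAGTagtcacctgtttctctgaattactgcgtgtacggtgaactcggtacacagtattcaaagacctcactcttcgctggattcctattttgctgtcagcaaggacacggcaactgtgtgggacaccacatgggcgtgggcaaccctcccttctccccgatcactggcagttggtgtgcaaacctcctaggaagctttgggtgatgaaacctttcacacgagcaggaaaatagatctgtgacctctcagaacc
The AGGAAGT match begins 223 bases before the start site in Mpo, 84 in Elane, 94 in Prtn3 and 206 in Ctsg. Both strands were searched, and the motif was found in all 4 promoters and in 9.27% of 32544 RefSeq mouse promoters of this length. GAGGAA, a related form that shares letters with AGGAAGT, was found in 4 of 4 and in 28.1% of all promoters. AACGG and AACTG, forms of the MYB core, were found in 2 of 4 and 3 of 4, against 17.4% and 44.9% of all promoters. TGTGGT, the RUNX core, was found in 1 of 4 and 16.7%, and TATAA in 3 of 4 and 24.8%. The motifs were chosen after these promoters had been read, so the matches are a description of the letters and not of binding. The deposited models start 203 bases upstream of the RefSeq start for Mpo and 65 for Elane, both inside the printed window, and at the same base for Ctsg. The deposited Prtn3 model starts 5191 bases upstream, so its printed window is not at the start of that model.

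Between 13036567 and 19822660 reads per library were assigned to a gene. The lowest correlation across genes between replicates was 0.987 for GMP, 0.956 for monocytes, 0.920 for B16 TAM and 0.745 for MC38 TAM. The monocyte library PBS replicate 2 stood apart from the other libraries of its group. Tests of the granule genes against PBS and GMP to monocyte ratios after PBS are therefore also given without it. So are the counts of lineage regulators, granule and peroxidase partners, and neutrophil genes. Most other monocyte results include it. The labels were set against marker genes. Kit, a receptor of early progenitors, averaged 21.4 FPKM (fragments scaled by gene length and sequencing depth) in OMV-SIRP-G, 20.7 in OMV-SIRP and 23.6 in PBS GMP, while the 12 genes of secondary granules and mature neutrophils summed to 28281 to 61604 FPKM in the same 9 libraries. The 8 monocyte markers summed to 2282 to 2665 FPKM in monocyte libraries. Macrophage markers summed to 4280.1 to 9849 FPKM in B16 TAM, to 1285 to 2179 FPKM in the OMV-SIRP-G and OMV-SIRP groups of MC38 TAM, and to 59.6 to 165 FPKM in MC38 TAM after PBS.

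All 5 genes were read in every GMP library, and no difference between treatments passed the test. Elane was the highest of the set per kilobase, with 2695, 2852 and 2860.3 FPKM in OMV-SIRP-G GMP, 2773, 2559 and 2619 in OMV-SIRP GMP, and 2178, 2709 and 2822 in PBS GMP. Mpo was at 1382, 1560.3 and 1615 FPKM in OMV-SIRP-G GMP, 1466, 1449 and 1429 in OMV-SIRP GMP, and 1470.2, 1452 and 1619 in PBS GMP. For both genes the 3 groups overlapped. Prtn3 had 897, 923 and 927 FPKM in OMV-SIRP-G GMP, 981, 967 and 999 in OMV-SIRP GMP, and 667, 842 and 918 in PBS GMP. Here every OMV-SIRP library was above every library of the other groups, though Prtn3 did not pass the test. How many of all genes separate these groups in this way was not counted. Ctsg ranged from 714 to 732 FPKM in OMV-SIRP-G GMP, from 709.8 to 784 in OMV-SIRP GMP and from 657 to 864 in PBS GMP. Prss57 was the lowest of the set, at 23.2 to 25.3 FPKM in OMV-SIRP-G GMP, 24.1 to 25.3 in OMV-SIRP GMP and 20.8 to 25.5 in PBS GMP.

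**Figure D1:**
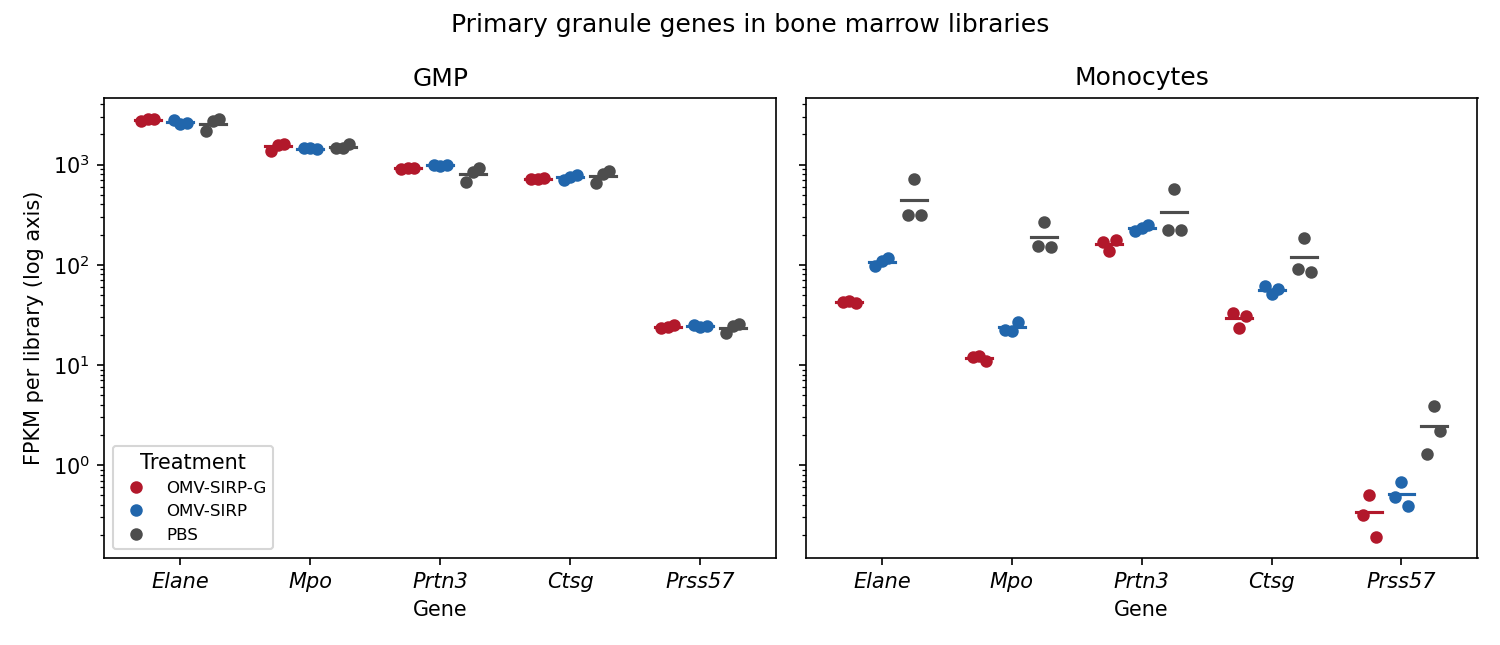
FPKM of the 5 primary granule genes in each GMP library (left) and monocyte library (right), on a log axis, with points for libraries, coloured by treatment, and short lines for group means (n = 3). In GMP the groups of Elane, Mpo, Ctsg and Prss57 overlap, and in monocytes Elane, Mpo, Ctsg and Prss57 were lower in every OMV-SIRP-G and OMV-SIRP library than in every PBS library.

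None of the 5 genes passed the test in GMP in any of the 3 comparisons. Tests were made with limma on log2(FPKM + 1) over all genes tested in a population, with Benjamini-Hochberg adjusted p under 0.05 as the threshold. Over all 12287 genes tested in GMP, 12% were called for OMV-SIRP-G against PBS, 18.2% for OMV-SIRP against PBS and 14.8% for OMV-SIRP-G against OMV-SIRP. At an unadjusted p under 0.05, 1 gene passed in OMV-SIRP against PBS, as did 31.9% of all genes, and 0 in the other 2 comparisons. That gene was Prtn3, with a log2 change of 0.29 ± 0.11 (SE, adjusted p = 0.0917). The other 4 genes lay between -0.06 and 0.07 in that comparison. Against PBS, the log2 changes in OMV-SIRP-G GMP ran from -0.09 for Ctsg to 0.19 for Prtn3. Prtn3 was called in OMV-SIRP against PBS with limma voom on the recovered reads (0.29, adjusted p = 0.0218), which called 0 of the 5 in the other comparisons,, without PBS replicate 1 (0.16, adjusted p = 0.0391) and without PBS replicate 3 (0.39, adjusted p = 0.0283). Ctsg was called in OMV-SIRP-G against PBS without PBS replicate 1 (-0.20, adjusted p = 0.0318).

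Other granulocyte genes were called in GMP. The 12 genes of secondary granules and mature neutrophils, whose proteins are made after the primary granule stage, rose as a list in OMV-SIRP GMP, with 12 of 12 called higher and a median log2 change of 0.92, against 10.6% of all genes called higher and an overall median of 0.02. In OMV-SIRP-G GMP 7 of the 12 were called higher and none lower, where 12% of all genes were called. The collagenase Mmp8 averaged 184 ± 4.67 FPKM in OMV-SIRP-G GMP, 111 ± 5.77 in OMV-SIRP GMP and 32.7 ± 1.73 in PBS GMP (SD, n = 3), with log2 changes against PBS of 2.46 ± 0.06 (adjusted p = 3.53e-08) and 1.73 ± 0.06 (adjusted p = 6.06e-07).

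Of the 12 lineage regulators, 3 rose and 2 fell with OMV-SIRP-G, and 1 rose and 3 fell with OMV-SIRP. Of all genes tested in GMP, 12% and 18.2% were called in these comparisons. Gfi1, a repressor needed for neutrophil differentiation, fell in both treatments, by 0.33 ± 0.05 with OMV-SIRP-G (adjusted p = 0.00368) and by 0.27 ± 0.05 with OMV-SIRP (adjusted p = 0.00749). Cebpe, the factor of the promyelocyte to myelocyte step, fell to 205 ± 5.4 FPKM in OMV-SIRP-G GMP, against 289 ± 26 in PBS GMP (log2 change -0.49 ± 0.07, adjusted p = 0.00268), and was at 321 ± 17.5 FPKM in OMV-SIRP GMP (0.15 ± 0.07, adjusted p = 0.201). Irf8, a factor of the monocyte branch, rose in OMV-SIRP-G GMP (0.32 ± 0.05, adjusted p = 0.0024). Cebpa and Myb did not pass in either comparison with PBS, with log2 changes between -0.17 and 0.16. Ctsc, the activator of the proteases, fell by 0.27 ± 0.06 with OMV-SIRP-G (adjusted p = 0.014) and by 0.28 ± 0.06 with OMV-SIRP (adjusted p = 0.00922). The elastase inhibitor Serpinb1a fell in OMV-SIRP-G GMP, with 165 ± 3.5 FPKM against 218 ± 20.1 in PBS GMP (-0.40 ± 0.07, adjusted p = 0.00685).

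The 16 granule partners, which are activators, carriers, inhibitors and fellow cargo of these granules, had 15 members tested in GMP. With OMV-SIRP-G 1 rose and 2 fell, and with OMV-SIRP 4 rose and 3 fell, where 12% and 18.2% of all genes were called. Of the 8 peroxidase partners, which supply or remove hydrogen peroxide, 3 fell with OMV-SIRP-G, while 3 rose and 1 fell with OMV-SIRP. Cybb, the catalytic subunit of the phagocyte NADPH oxidase, fell with OMV-SIRP-G (-0.22 ± 0.05, adjusted p = 0.0309) and rose with OMV-SIRP (0.25 ± 0.05, adjusted p = 0.0135). Lists of other lineages moved in the same libraries. Erythroid markers summed to 4.51 to 6.03 FPKM in OMV-SIRP-G, 4.18 to 5.17 in OMV-SIRP and 38.9 to 55.8 in PBS GMP, and eosinophil markers to 2970 to 3072, 2526 to 2849 and 3514 to 4618 FPKM in the same groups. Their part in the granule values was not tested.

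In monocytes, Mpo, Elane, Ctsg and Prss57 were lower in every library after either vesicle than in every PBS library, and by different amounts. This held for 7.46% of all 12028 genes tested, and Prss57 passed the filter on low values only through its PBS libraries. Mpo had 11.99, 12.2 and 11.1 FPKM in OMV-SIRP-G monocytes, 22.2, 22.1 and 26.7 in OMV-SIRP monocytes, and 153, 266 and 149 in PBS monocytes. The 3 groups did not overlap, and the group means after OMV-SIRP-G and OMV-SIRP were 6.19% and 12.5% of the PBS mean. The log2 change was -3.85 ± 0.21 with OMV-SIRP-G (adjusted p = 9.69e-05) and -2.90 ± 0.21 with OMV-SIRP (adjusted p = 0.000339). Mpo was called in all 12 alternative settings of both comparisons with PBS, with log2 changes from -4.00 to -3.58 and from -3.05 to -2.63. The reads behind these values numbered 552 to 11944 per library.

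Elane, the elastase, was at 42.9, 43.4 and 41.7 FPKM in OMV-SIRP-G monocytes, 96.9, 109 and 117 in OMV-SIRP monocytes, and 311, 721 and 312 in PBS monocytes. Again no groups overlapped, and PBS replicate 2 was above every other library. Elane fell by 3.24 ± 0.30 on the log2 scale with OMV-SIRP-G (adjusted p = 0.000774) and by 1.93 ± 0.30 with OMV-SIRP (adjusted p = 0.00763). The OMV-SIRP call was lost in a fit of the 2 compared groups alone (adjusted p = 0.0528).

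Ctsg had 33.3, 23.5 and 31.0 FPKM in OMV-SIRP-G monocytes, 61.1, 50.7 and 57.7 in OMV-SIRP monocytes, and 90.7, 186 and 84.1 in PBS monocytes. The groups stood in the same order as for Mpo and Elane, without overlap. Ctsg fell with OMV-SIRP-G (log2 change -1.92 ± 0.29, adjusted p = 0.00868), which was lost in a fit of the 2 compared groups alone (adjusted p = 0.0625). With OMV-SIRP the change was -0.98 ± 0.29 (adjusted p = 0.0763).

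Prtn3, proteinase-3, did not pass in either comparison with PBS. It had 168, 136 and 177 FPKM in OMV-SIRP-G monocytes, 216, 233 and 248 in OMV-SIRP monocytes, and 221, 575 and 220.4 in PBS monocytes. OMV-SIRP and PBS libraries overlapped, and OMV-SIRP-G libraries lay below both. The log2 change was -0.92 ± 0.35 with OMV-SIRP-G (adjusted p = 0.243) and -0.39 ± 0.35 with OMV-SIRP (adjusted p = 0.554). In OMV-SIRP-G and OMV-SIRP monocytes Prtn3 was the most abundant of the 5 genes per kilobase, and in PBS monocytes Elane was.

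Prss57 was near the limit of measurement, at 0.319, 0.507 and 0.193 FPKM in OMV-SIRP-G monocytes, 0.484, 0.672 and 0.393 in OMV-SIRP monocytes, and 1.30, 3.92 and 2.21 in PBS monocytes. The treated libraries lay below every PBS library. The log2 change was -1.31 ± 0.26 with OMV-SIRP-G (adjusted p = 0.0322) and -1.13 ± 0.26 with OMV-SIRP (adjusted p = 0.0344), and FPKM + 1 understates a change at this level. Prss57 passed the filter on low values only through the 3 PBS libraries, so it had to differ, and its calls support no count. Each call was lost without any 1 of the 3 treated libraries of its comparison, without the filter and in a fit of the 2 compared groups alone. Fstl3, on the opposite strand, had 8 to 46 reads per monocyte library where Prss57 had 8 to 146, and the reads of the overlap cannot be told apart.

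**Figure D2:**
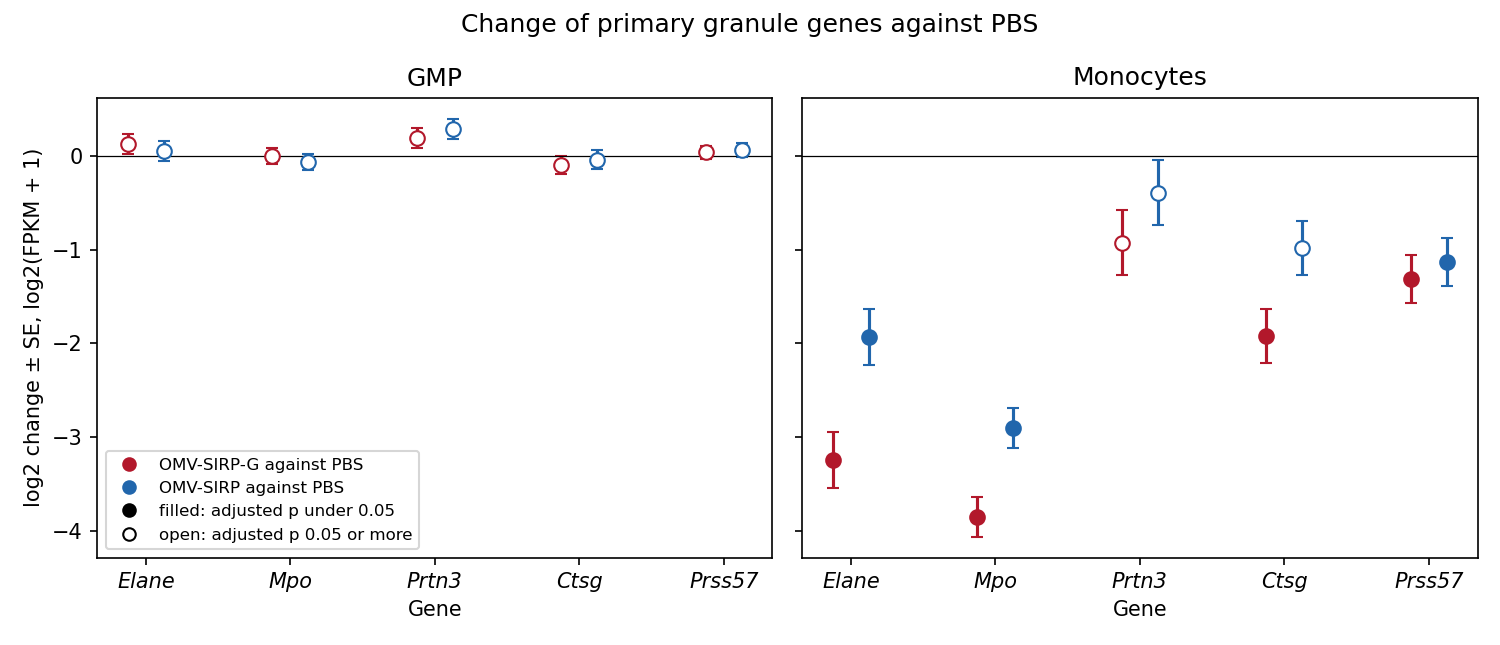
Log2 change against PBS with its standard error for each gene in GMP (left) and monocytes (right), on the log2(FPKM + 1) scale, for OMV-SIRP-G (red) and OMV-SIRP (blue), with filled points for adjusted p under 0.05. GMP points lie between -0.09 and 0.29 and are all open, and monocyte points lie between -0.39 and -3.85.

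Of the 4 genes that passed the filter by their levels in every group, 3 were called lower with OMV-SIRP-G and 2 with OMV-SIRP. Of all 12028 genes tested, 3.67% were called for OMV-SIRP-G against PBS, 2.14% lower, and 8.53% for OMV-SIRP against PBS, 5.46% lower. The median log2 change of these 4 was -2.58 with OMV-SIRP-G and -1.46 with OMV-SIRP, beside -0.01 and -0.03 over all genes tested. The set was chosen with earlier results of these data known. The values are from bulk libraries, in which fewer cells of a type and less RNA per cell cannot be told apart.

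Without PBS replicate 2, 12.5% of 11854 genes were called for OMV-SIRP-G against PBS and 30.1% for OMV-SIRP against PBS. Mpo then had log2 changes of -3.58 (adjusted p = 4.09e-07) with OMV-SIRP-G and -2.63 (adjusted p = 2.52e-06) with OMV-SIRP. Elane had -2.84 (adjusted p = 6.95e-07) and -1.53 (adjusted p = 1.19e-05), each smaller than with all libraries. Ctsg was called in both, at -1.56 (adjusted p = 0.000357) and -0.62 (adjusted p = 0.0138). Prtn3 was called with OMV-SIRP-G (-0.47, adjusted p = 0.029) and stood at 0.07 with OMV-SIRP (adjusted p = 0.663), on the other side of 0 from the value with all libraries. Prss57 no longer passed the filter.

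Between the vesicles, the genes were lower after OMV-SIRP-G than after OMV-SIRP in monocytes, without any call. Log2 changes were -1.31 ± 0.30 for Elane (adjusted p = 0.0666), -0.95 ± 0.21 for Mpo (adjusted p = 0.0638), -0.94 ± 0.29 for Ctsg (adjusted p = 0.155), -0.54 ± 0.35 for Prtn3 (adjusted p = 0.57) and -0.18 ± 0.26 for Prss57 (adjusted p = 0.866). At an unadjusted p under 0.05, 3 of the 5 passed, namely Elane, Mpo and Ctsg, and 14.9% of all genes did. The OMV-SIRP-G and OMV-SIRP libraries did not overlap for 4 genes, all but Prss57. Every OMV-SIRP-G library was below every OMV-SIRP library for 15.7% of all genes tested, and 2.44% of all genes were called, 0.848% lower. The fit took its spread from all 9 libraries. In a fit of these 2 groups alone, 4 of 4 genes tested were called, with adjusted p from 0.000127 for Elane to 0.0144 for Prtn3. The share of all genes called in that fit is not given here, and the 2.44% belongs to the fit of 9 libraries. The 4 of 4 therefore cannot be read as particular to the set. Total-read scaling called 2, Mpo and Elane, and limma voom called 1, Mpo (adjusted p = 0.0499).

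Relative to Mpo in the same library, Elane, Prtn3 and Ctsg were higher in every treated monocyte library than in every PBS library. Such a ratio does not depend on how a library was scaled. Prtn3 over Mpo, in FPKM, was 14.0, 11.2 and 15.99 in OMV-SIRP-G monocytes, 9.75, 10.5 and 9.26 in OMV-SIRP monocytes, and 1.44, 2.16 and 1.48 in PBS monocytes. No groups overlapped. Ctsg over Mpo averaged 2.50 ± 0.496 in OMV-SIRP-G, 2.40 ± 0.314 in OMV-SIRP and 0.618 ± 0.0712 in PBS monocytes (SD, n = 3), and Elane over Mpo 3.64 ± 0.116, 4.57 ± 0.322 and 2.28 ± 0.377 in the same groups. For all 3 ratios, a two-sided exact permutation test of each treated group against PBS gave p = 0.1, the smallest that 3 against 3 libraries allow, and adjusted p = 0.218 over the 24 ratios compared, so the design could not pass the threshold. Prss57 over Mpo overlapped between OMV-SIRP and PBS monocytes (exact permutation p = 0.3). These ratios restate the changes of the single genes. In GMP the ratio of Prtn3 to Mpo was 0.605 ± 0.039 in OMV-SIRP-G, 0.678 ± 0.0181 in OMV-SIRP and 0.533 ± 0.0694 in PBS libraries. The ratio in PBS replicate 2 of the monocytes, 2.16, lay above the other PBS libraries and below every treated library.

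**Figure D3:**
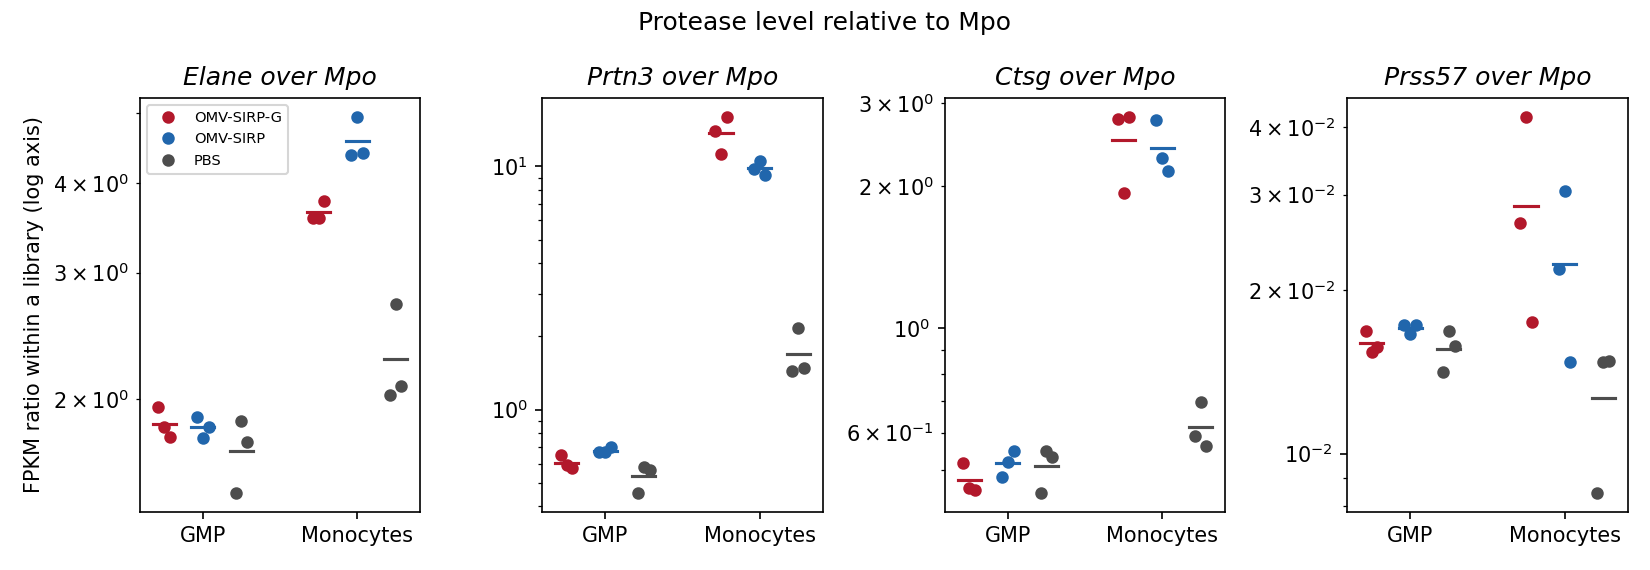
Ratio of each protease to Mpo within a library, in FPKM on a log axis, in GMP (left of each panel) and monocytes (right of each panel), with points for libraries and lines for group means (n = 3). In monocytes the Prtn3 ratio was 9.26 or more in every treated library and 2.16 or less in every PBS library. In GMP all 4 ratios overlap between OMV-SIRP-G and PBS libraries.

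Some regulators and companions of the granule genes were lower in the same monocyte libraries, and others did not pass or were higher. Myb, a factor of immature myeloid cells that is known to act on granule gene promoters, fell to 0.643 ± 0.112 FPKM in OMV-SIRP-G monocytes, against 3.83 ± 0.59 in PBS monocytes (log2 change -1.55 ± 0.13, adjusted p = 0.00041). With OMV-SIRP it was at 1.46 ± 0.183 FPKM (-0.97 ± 0.13, adjusted p = 0.00363). Gfi1 fell to 0.854 ± 0.199 FPKM with OMV-SIRP-G and 1.1 ± 0.329 FPKM with OMV-SIRP, against 3.06 ± 0.235 FPKM in PBS monocytes, with adjusted p = 0.00402 and 0.00674. In treated monocytes Gfi1, and Myb after OMV-SIRP-G, lay near or under the filter of 1 FPKM. The PBS libraries of both genes met the filter by themselves, while Myb in OMV-SIRP monocytes also averaged above it. No weight is put on a count of regulators from these calls. Of the 12 lineage regulators Myb and Gfi1 were the members called, 2 lower and 0 higher in each comparison. Over all genes tested, 2.14% were called lower with OMV-SIRP-G and 5.46% with OMV-SIRP. Cebpa, Cebpe and Irf8 did not pass, with log2 changes between -0.57 and 0.33. Without PBS replicate 2 the counts were 3 lower and 2 higher with OMV-SIRP-G, and 2 lower and 2 higher with OMV-SIRP. Of all genes, 12.5% and 30.1% were then called.

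Among the granule partners, 15 of 16 were tested in monocytes. With OMV-SIRP-G 1 rose and 1 fell, and with OMV-SIRP 2 rose and 4 fell, and without PBS replicate 2 these counts were 3 and 4, and 4 and 6. Of all genes, 3.67% and 8.53% were called with all libraries, and 12.5% and 30.1% without that library. Ms4a3, a membrane protein of granulocyte-monocyte progenitors and their progeny, fell to 4.4 ± 0.718 FPKM with OMV-SIRP-G and 8.11 ± 0.557 FPKM with OMV-SIRP, against 23.3 ± 10.5 FPKM in PBS monocytes (-2.10 ± 0.26, adjusted p = 0.00354, and -1.33 ± 0.26, adjusted p = 0.0179). Srgn, the core protein that holds the proteases in the granule, fell with OMV-SIRP (-1.39 ± 0.23, adjusted p = 0.00976) and had a change of -0.55 ± 0.23 with OMV-SIRP-G (adjusted p = 0.296). Ctsc was at 261 ± 6.53 FPKM with OMV-SIRP-G, 240 ± 4.09 with OMV-SIRP and 278 ± 16.4 in PBS monocytes, and did not pass. Gaa, a lysosomal glucosidase, rose with both (0.49 ± 0.09, adjusted p = 0.0277, and 0.64 ± 0.09, adjusted p = 0.00602).

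Of the 8 peroxidase partners, 1 rose in each comparison and none fell, where 3.67% of all genes were called with OMV-SIRP-G and 8.53% with OMV-SIRP. Catalase, Cat, which removes hydrogen peroxide, averaged 93.2 ± 3.31 FPKM in OMV-SIRP-G against 62.6 ± 8.02 in PBS monocytes (0.57 ± 0.11, adjusted p = 0.0297). Hvcn1, the voltage-gated proton channel that sustains the oxidase, averaged 12.4 ± 1.66 FPKM in OMV-SIRP against 6.43 ± 1.11 in PBS monocytes (0.85 ± 0.15, adjusted p = 0.0133). The oxidase subunits Cyba, Cybb, Ncf1 and Ncf4 did not pass in either comparison. Without PBS replicate 2 the counts were 4 higher with OMV-SIRP-G and 2 higher with OMV-SIRP, with none lower. Of all genes, 12.5% and 30.1% were then called.

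In the secondary granule and mature neutrophil list, 2 of 12 genes rose and none fell in monocytes with OMV-SIRP-G, at a median log2 change of 0.33. With OMV-SIRP 2 rose and 1 fell, at a median of -0.27, where 3.67% and 8.53% of all genes were called in these comparisons. Mmp9, a gelatinase, rose with both (1.33 ± 0.10, adjusted p = 0.000217, and 0.97 ± 0.10, adjusted p = 0.00109), as did the chemokine receptor Cxcr2 (1.05 ± 0.15, adjusted p = 0.00621, and 0.91 ± 0.15, adjusted p = 0.00915). Ngp, a secondary granule protein, fell with OMV-SIRP, with 297 ± 6.96 FPKM against 676 ± 242 in PBS monocytes (-1.13 ± 0.22, adjusted p = 0.0185). Without PBS replicate 2 the counts were 6 higher and 1 lower, and 3 higher and 2 lower, where 12.5% and 30.1% of all genes were called. The list summed to 2611 to 3533 FPKM in OMV-SIRP-G, 2357 to 2687 in OMV-SIRP and 3028 to 7482 in PBS monocytes, the highest being PBS replicate 2.

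Markers of several other lineages had lower sums in treated monocytes, and others did not. Of all genes tested, 3.67% were called with OMV-SIRP-G, 2.14% lower, and 8.53% with OMV-SIRP, 5.46% lower. These shares and the counts that follow include PBS replicate 2, and counts of these lists without it are not given. Erythroid genes summed to 16.9 to 21.1 FPKM in OMV-SIRP-G, 8.12 to 9.46 in OMV-SIRP and 138 to 426 in PBS monocytes, with 3 and 4 of the 4 tested called lower. Eosinophil genes summed to 36.6 to 49.7 FPKM, 22.8 to 25.02 and 78.6 to 179 in the same groups, with 1 and 4 of 5 called lower. B cell genes summed to 9.11 to 10.2, 14.7 to 16.7 and 22.6 to 45.1 FPKM, and 2 of 3 were called lower in each comparison. T and NK cell genes, of which 1 was tested and called lower in both, summed to 2.64 to 3.26, 3.05 to 3.66 and 10.02 to 21.5 FPKM. Most of that sum was Nkg7, a gene of cytotoxic lymphocytes, at means of 1.68, 2.59 and 12.998 FPKM, while the T cell receptor gene Trac averaged 0.912, 0.568 and 0.288 FPKM. Mast cell and basophil genes summed to 17.1 to 17.8, 11.1 to 12.5 and 26.6 to 56.4 FPKM, with 0 and 2 of 3 called lower. The cell cycle list summed to 142 to 146, 139 to 139.9 and 176 to 195 FPKM. Macrophage genes summed to 491 to 533, 692 to 792 and 548 to 1094 FPKM, with 1 of 7 called higher with OMV-SIRP-G and 4 of 7 with OMV-SIRP. Early progenitor genes summed to 10.5 to 11.7, 21.6 to 24.3 and 16.3 to 16.9 FPKM, highest in the OMV-SIRP libraries. None of these lists had a gene at 0 in all 9 libraries. PBS replicate 2 was the highest library for the erythroid, eosinophil, B cell, T and NK cell, and mast cell and basophil sums, as it was for each of the 5 granule genes. That library was also the highest for the monocyte, macrophage and cell cycle sums, but not for the early progenitor sum. The depth that scaled its FPKM was 0.768 of its assigned reads, against 0.944 and 0.943 in PBS replicates 1 and 3, which raises its FPKM. The monocyte list summed to 2580 to 2627 FPKM in OMV-SIRP-G, 2282 to 2456 in OMV-SIRP and 2394 to 2665 in PBS monocytes. The part of these cells or transcripts in the granule gene values was not tested.

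**Figure D4:**
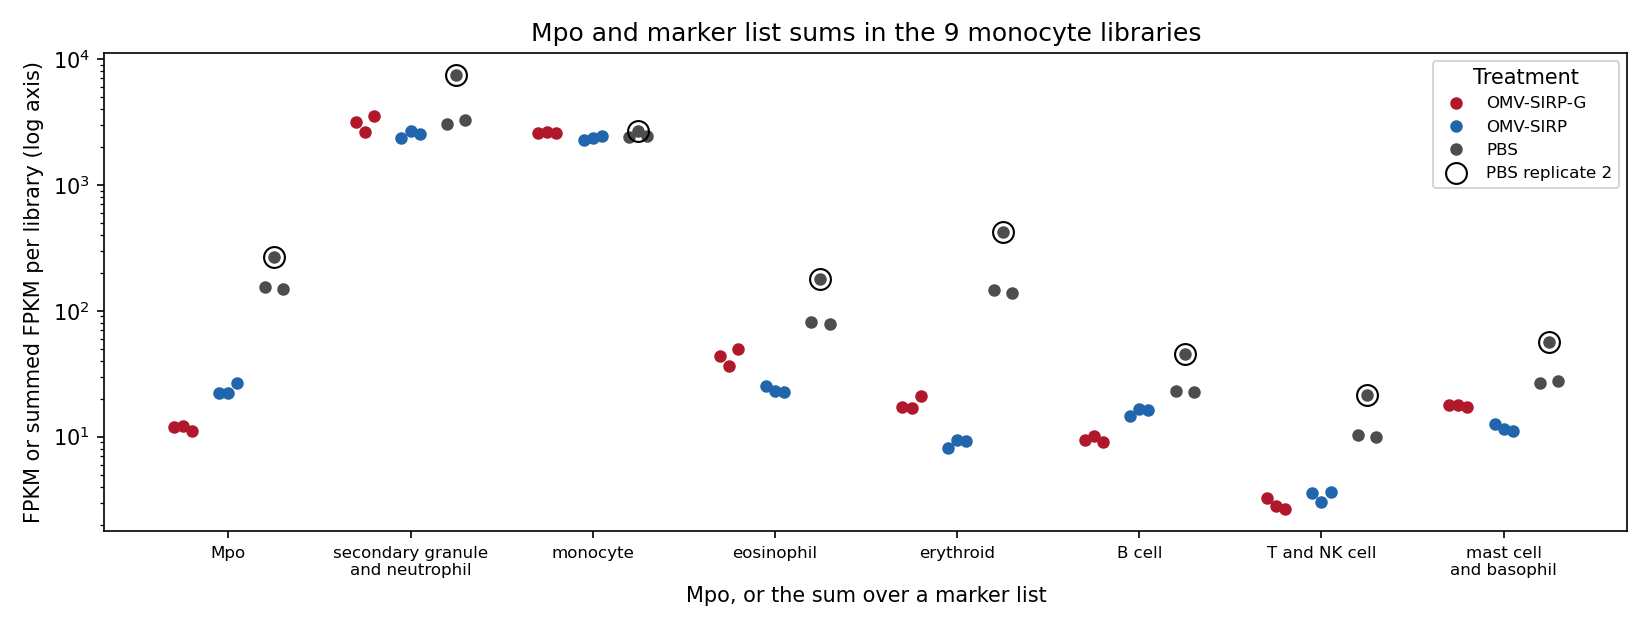
FPKM of Mpo and summed FPKM of 7 marker lists in each of the 9 monocyte libraries, on a log axis, coloured by treatment, with PBS replicate 2 circled. The monocyte sums lie between 2282 and 2665 in all libraries, while Mpo and the erythroid sum are lower in every treated library than in every PBS library.

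Across the 9 monocyte libraries the 5 genes correlated with each other at Pearson r from 0.735, for Mpo with Prtn3, to 0.979, for Mpo with Elane, over 10 pairs. In GMP the range was 0.064 to 0.882, and Mpo with Prtn3 was again the lowest. The libraries share a treatment and a scaling, so these values only describe the set. Among 6385 protein-coding genes with a mean of at least 5 FPKM in monocytes, the 6 most like the mean of the 5 included Ms4a3 (r = 0.994), Oas1a (0.994), Fcnb (0.99), Tnf (0.984) and Ms4a4c (0.981). Tnf, the inflammatory cytokine, averaged 34.6 ± 3.18 FPKM in OMV-SIRP-G, 49.5 ± 3.91 in OMV-SIRP and 131 ± 29.4 in PBS monocytes. Fcnb, a ficolin of immature myeloid cells, averaged 14.4 ± 1.76, 24.8 ± 2.06 and 58.6 ± 29.7 FPKM in the same groups. In GMP, where the set hardly varied, the 6 most alike of 6463 were Napsa, Rps27l, Arl11, Ssr4, Cst3 and Rps4x, at 0.951 to 0.957.

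GMP and monocytes were scaled in 1 table, and their levels can be set side by side, with no test between them. Every GMP library was above every monocyte library for all 5 genes. How many of all genes separate the 2 populations in this way was not counted. The GMP mean was 129 times the monocyte mean for Mpo after OMV-SIRP-G, 61.2 times after OMV-SIRP and 7.98 times after PBS. For Elane the same ratios were 65.6, 24.6 and 5.74, and for Ctsg 24.6, 13.3 and 6.43. Prtn3 had the smallest, 5.7, 4.23 and 2.39. Without monocyte PBS replicate 2 the ratio after PBS was 3.67 for Prtn3, 10.003 for Mpo, 8.25 for Elane and 8.85 for Ctsg. For all 5 genes the means ran, from high to low, through GMP, PBS monocytes, OMV-SIRP monocytes and OMV-SIRP-G monocytes. Neighbouring monocyte groups overlapped for Prtn3, between PBS and OMV-SIRP, and for Prss57, between OMV-SIRP and OMV-SIRP-G.

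Within 100 kb of the chromosome 10 genes lie 21 other protein-coding genes, of which 12 were tested in monocytes. Of these, 0 were called lower in either comparison with PBS, and 1 was called higher with OMV-SIRP. Over all genes, 2.14% were called lower with OMV-SIRP-G and 5.46% with OMV-SIRP, so 0 of 12 does not set these neighbours apart. In GMP 13 were tested, with 1 higher and 2 lower with OMV-SIRP-G, and 3 higher and 1 lower with OMV-SIRP. There 12% and 18.2% of all genes were called. Around Mpo, 5 of 8 neighbours were tested. Tspoap1 fell with both treatments (-0.76 ± 0.15, adjusted p = 0.0283, and -1.01 ± 0.15, adjusted p = 0.00555), at mean levels of 1.53 FPKM in OMV-SIRP-G, 1.12 in OMV-SIRP and 3.32 in PBS monocytes. Epx, the eosinophil peroxidase and the closest relative of Mpo in the region, fell with OMV-SIRP in monocytes (-1.01 ± 0.18, adjusted p = 0.0129) and in GMP fell with both, by 0.87 ± 0.07 with OMV-SIRP-G (adjusted p = 5.3e-05) and by 1.13 ± 0.07 with OMV-SIRP (adjusted p = 1.1e-05). Mpo did not pass in those GMP. Mcpt8, a basophil protease near Ctsg, fell in GMP by 0.55 ± 0.09 with OMV-SIRP-G (adjusted p = 0.00333) and by 1.02 ± 0.09 with OMV-SIRP (adjusted p = 6.97e-05), where Ctsg did not pass. Plppr3, which overlaps Prtn3 on the other strand, was at 16.7 to 24.8 FPKM in monocytes and 29.4 to 34.9 in GMP, under the level of Prtn3 in every library.

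In the tumours the genes were at or near 0, and none passed the filter on low values in either TAM population. Neither set of libraries was scaled with the bone marrow table, so no ratio is given. In B16 TAM, Mpo, Elane and Ctsg had 0 reads in all 9 libraries, which allows up to 0.0647 FPKM of Mpo, 0.225 of Elane and 0.214 of Ctsg in the shallowest library, taking 3 reads as the limit, for counting error only. Prtn3 had 3, 71 and 36 reads in B16 TAM after OMV-SIRP-G, or 0.114, 2.65 and 1.46 FPKM, and 0 reads in the 3 OMV-SIRP and 3 PBS libraries. Prss57 had 21, 23 and 41 reads after OMV-SIRP-G, 13, 0 and 18 after OMV-SIRP, and 0, 18 and 4 after PBS. All 3 OMV-SIRP-G libraries were above the others for both genes, though for Prss57 the nearest libraries had 21 and 18 reads. How many of all genes show this pattern was not counted. Of all genes tested in B16 TAM, 15.1% were called for OMV-SIRP-G against PBS. With no filter on low values, the log2 change of Prtn3 for OMV-SIRP-G against PBS was 1.11 ± 0.39 (adjusted p = 0.186) and that of Prss57 was 0.52 ± 0.27 (adjusted p = 0.418).

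Both genes overlap a gene on the opposite strand that had reads in B16 TAM. Plppr3 had 51, 26 and 72 reads in B16 TAM after OMV-SIRP-G, 17, 41 and 29 after OMV-SIRP, and 0, 25 and 31 after PBS. Fstl3 had 15, 57 and 0 reads after OMV-SIRP-G, 37, 48 and 57 after OMV-SIRP, and 55, 21 and 25 after PBS. Neutrophil marker genes summed to 12.1 to 23.6 FPKM in OMV-SIRP-G, 10.1 to 22.6 in OMV-SIRP and 13.2 to 21.5 in PBS B16 TAM, with Ly6g and Ngp at 0 in all 9 libraries. Early progenitor markers summed to 8.41 to 12.6, 21.6 to 27.6 and 15.4 to 17.0 FPKM. Macrophage markers, all 8 called higher with OMV-SIRP-G against PBS, summed to 9324 to 9849, 4280.1 to 6235 and 4865 to 5432 FPKM, and melanocyte markers, all 5 called lower, to 773 to 879, 2288 to 2531 and 2800.3 to 3053 FPKM. The part of any of these in the Prtn3 reads was not tested.

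MC38 TAM held scattered reads. Elane had 0 reads in all 9 libraries. Ctsg had 19, 16 and 0 reads after OMV-SIRP-G, 9, 0 and 2 after OMV-SIRP, and 0 in the 3 PBS libraries. Mpo had 16 reads in 1 OMV-SIRP-G library, 12 in 1 OMV-SIRP library and 0 in the other 7. Prtn3 had 5 reads in 1 OMV-SIRP-G library, and Prss57 had 73 in 1 PBS library and 5 in 1 OMV-SIRP library. In no group did a gene of the set have reads in all 3 libraries. With no filter on low values, the log2 change of Ctsg was 0.69 ± 0.36 for OMV-SIRP-G against PBS (adjusted p = 0.368). Neutrophil markers, 4 of 8 tested called lower with OMV-SIRP-G against PBS, differed between these groups, summing to 36.3 to 55.5 FPKM in OMV-SIRP-G, 40.5 to 180 in OMV-SIRP and 295 to 668 in PBS MC38 TAM, with Ly6g at 0 in all 9 libraries. Of all genes tested in MC38 TAM, 19.9% were called for OMV-SIRP-G against PBS. Fstl3, opposite Prss57, had 53, 282 and 139 reads in those 3 PBS libraries.

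**Figure D5:**
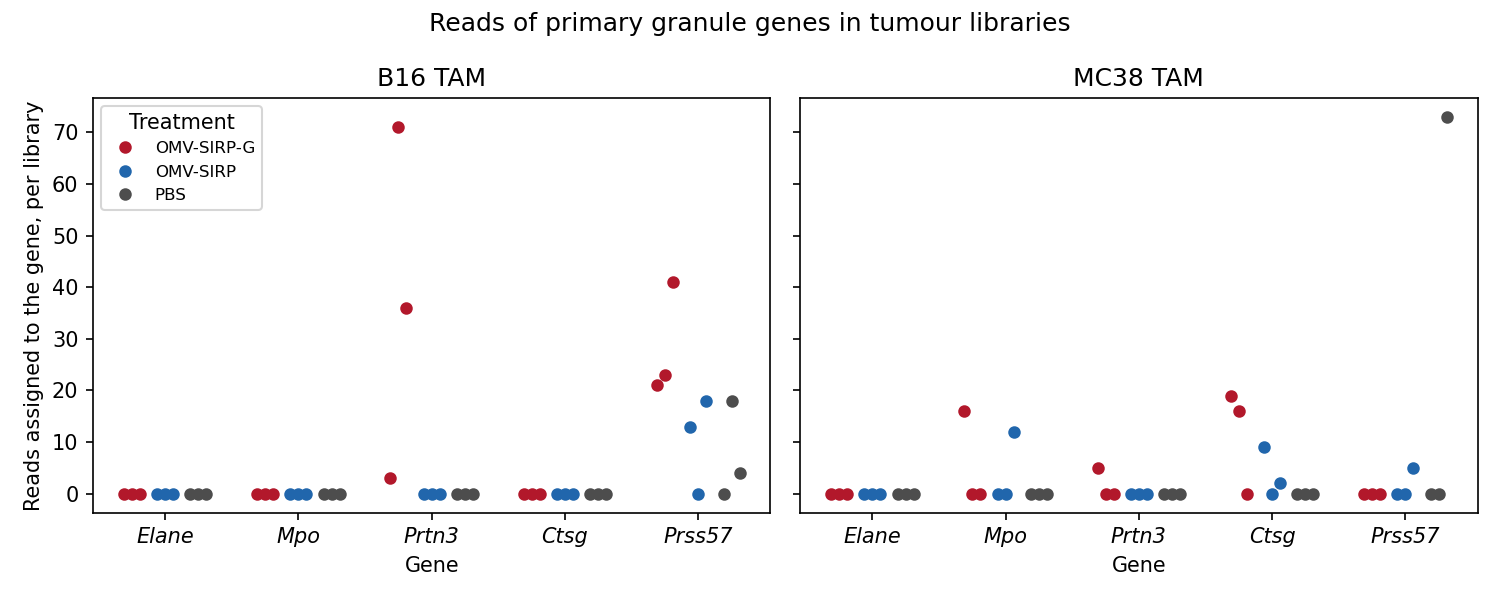
Reads assigned to each of the 5 genes in each B16 TAM library (left) and MC38 TAM library (right), with points coloured by treatment. In B16 TAM the reads of Prtn3 come from the 3 OMV-SIRP-G libraries, and most other points lie at 0.

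Several partners of these proteins rose in the tumours. Ctsc, also used by other immune cells, averaged 139 ± 6.77 FPKM in OMV-SIRP-G against 53.5 ± 3.82 in PBS B16 TAM (1.36 ± 0.10, adjusted p = 3.25e-05), and 103 ± 2.72 FPKM in OMV-SIRP-G against 11.3 ± 2.84 in PBS MC38 TAM (3.11 ± 0.37, adjusted p = 0.00115). Of 14 granule partners tested in B16 TAM, 7 rose and 1 fell with OMV-SIRP-G and 3 rose and 1 fell with OMV-SIRP, where 15.1% and 1.45% of all genes were called. In MC38 TAM 6 of 14 rose and 1 fell with OMV-SIRP-G and 7 rose and none fell with OMV-SIRP, where 19.9% and 10.9% of all genes were called. Of 8 peroxidase partners, 4 rose in B16 TAM and 8 in MC38 TAM with OMV-SIRP-G. Cybb averaged 39.8 ± 3.57 FPKM in OMV-SIRP-G against 17.3 ± 2.9 in PBS B16 TAM (1.16 ± 0.14, adjusted p = 0.000381), in libraries where Mpo had no read. With OMV-SIRP-G all 8 macrophage markers were called higher in each model, and with OMV-SIRP 8 of 8 in MC38 TAM and 1 of 8 in B16 TAM, and the part of these cells in the changes was not tested.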

How the data were processed

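RNA sequencing of sorted mouse cells was deposited as 3 tables of FPKM per gene, which the authors computed. Per the submitters' processing notes, HISAT2 2.0.5, StringTie and featureCounts 1.5.0-p3 were used with GRCm38; whether reads were counted by strand is not given in the sources used here. GMP and monocytes share 1 table, and the B16 and MC38 tables were scaled separately, so tests stayed within a population. Genes with at least 1 FPKM in 3 of the 9 libraries of a population were tested with limma 3.58.1 (robust trended empirical Bayes, statmod 1.5.0, R 4.3.3) on log2(FPKM + 1), with Benjamini-Hochberg adjustment over all genes tested and a threshold of 0.05. A fold change on this scale understates the change of low genes. Replicates were 3 libraries per group.

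FPKM steps gave whole reads for 100% of values (tolerance 0.05 reads). limma voom on these reads, an alternative, called 2756 genes in GMP for OMV-SIRP against PBS, 1864 for OMV-SIRP-G against PBS and 2290 between the vesicles, and 1090, 422 and 317 in monocytes, 189, 2143 and 1667 in B16 TAM, and 1629, 3060 and 93 in MC38 TAM. Other alternatives were a pseudocount of 0.1, no filter, total-read scaling, the 2 compared groups alone, a replicate block and leaving out each library. The fits were tested on simulated data.

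The 5 genes and the gene lists were chosen with earlier results of these data known. The text names all 5 genes, up to 4 genes with the lowest adjusted p per list and comparison, 8 partners and regulators followed throughout, and genes among the 6 of most similar pattern in a population among those with a mean of at least 5 FPKM; the gene neighbours named and the list genes named outside this rule were chosen after their values were seen. A gene that these rules pick and the text does not name is not reported here. List counts and GMP to monocyte ratios without monocyte PBS replicate 2 were added after the data were seen.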

Additional observations from a re-analysis of the deposited data

Results flagged for a closer look

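Reads of Prtn3 were found in B16 TAM, where the gene was too low to be tested with the rest, at a mean of 1.41 FPKM after OMV-SIRP-G against 0 reads in every PBS library. Prss57 averaged 0.674 FPKM in B16 TAM after OMV-SIRP-G, also outside the genes tested and above its level in every PBS library. Both were picked out because reads appeared above the level of the PBS libraries in genes that the main comparisons left out. In limma with no filter on low values neither was called for OMV-SIRP-G against PBS (Prtn3 adjusted p = 0.186, Prss57 adjusted p = 0.418). Plppr3 and Fstl3, which overlap them on the opposite strand, also had reads in B16 TAM.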

How the results depend on the processing

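Over 353 alternative values of single genes, 312 kept direction and side of the threshold, 13 passed newly, 12 no longer passed and 16 changed sign, none of the last being called. With total-read scaling, GMP log2 changes for OMV-SIRP against PBS were -0.047 for Elane and -0.030 for Prss57, that of Mpo for OMV-SIRP-G against PBS was -0.014, and those between the vesicles were 0.027 for Ctsg and 0.053 for Prss57. With 1 library left out in turn, GMP values for OMV-SIRP against PBS ran from -0.062 to 0.12 for Elane, from -0.15 to 0.049 for Ctsg and from -0.018 to 0.12 for Prss57. For OMV-SIRP-G against PBS they ran from -0.042 to 0.070 for Mpo and from -0.044 to 0.098 for Prss57, and between the vesicles from -0.058 to 0.0013 for Prss57. Monocyte Prtn3 with OMV-SIRP ran from -0.62 to 0.071, the highest without PBS replicate 2. Of the 5 genes, 0 to 1 were called in GMP against PBS when a library was left out, in each comparison, and 1 with voom for OMV-SIRP. In monocytes the 2 compared groups alone called 1 for OMV-SIRP and 2 for OMV-SIRP-G against PBS, and 4 between the vesicles, where total-read scaling called 2 and voom 1. Shares of all genes called in the fits of 2 groups are not given here. The cause was not tested. Total-read scaling moved the log2 ratio of FPKM between groups by 0.18 in monocytes for OMV-SIRP against PBS, and by -0.38, -0.19 and 0.19 in MC38 TAM. On the log2(FPKM + 1) scale of the fits, genes of low level moved by less. With a replicate block no call of the 5 genes changed, Mpo having adjusted p = 0.00365 with OMV-SIRP and 0.00213 with OMV-SIRP-G in monocytes. Same-numbered libraries did not deviate together in every pair, with correlations from -0.37 to 0.25, both ends in monocytes. In GMP they ran from -0.020 to 0.223, against -0.215 to 0.047 for libraries of unlike number. Whether the numbers pair samples cannot be told from these values. The block called 520, 242 and 75 genes in monocytes, against 1026, 442 and 293 without it, and 8 against 54 in MC38 TAM between the vesicles. Depth limits Prss57 in monocytes, with 8 to 146 reads, and all 5 genes in TAM.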
